A study of Mus musculus with 16 samples.

Results

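The nucleolar ribosome assembly factors are 42 genes whose products make ribosomal RNA and build it into ribosomal subunits. They were taken by name from a table of 23410 gene symbols. All 42 were found, and all 42 passed the filter on low counts among the 10080 genes tested. RNA was sequenced from the mouse erythroid cell line G1E-ER4. These cells have lost their own GATA1, the chief activator of red cell genes, and hold in its place a fusion of GATA1 with the hormone-binding end of the estrogen receptor. The fusion enters the nucleus when beta-estradiol is added. Cells were given 0, 12.5, 25, 50, 75, 100, 150 or 200 nM, with 2 libraries at each of the 8 doses. All cells, those at 0 nM included, carried the fusion and grew with serum, stem cell factor and erythropoietin. No cells without the fusion were analysed here, so effects of beta-estradiol itself and of GATA1 cannot be told apart. The series rests on a single cell line, and how long cells were exposed is not stated in the labels. Nothing states that the replicates were separate cultures, so p-values measure only the spread between these libraries, which may be technical.

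RNA polymerase I copies the ribosomal RNA genes into a long precursor in the nucleolus. Small nucleolar RNAs packed with box C/D or H/ACA proteins guide its chemical modification, and assembly factors cut, fold and fit it with ribosomal proteins along separate paths for the small and the large subunit. Growing erythroid precursors make many ribosomes, and inherited defects of ribosome production are known for causing anaemia. The genes are described in 6 groups, namely 7 genes of the polymerase I machinery, 3 box C/D proteins, 4 H/ACA proteins, 11 small subunit factors, 13 large subunit factors and 4 nucleolar proteins of several roles.

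Promoter sequences are shown for 4 members that stand at different places in the results, with the letters CACGTG in capitals. This word is the E-box known to be bound by MYC, a factor known for activating genes of ribosome production. Nop2, an rRNA methyltransferase of the large subunit path, Utp18, a small subunit factor that fell late in the dose series, and Rrn3, the polymerase I initiation factor that hardly fell, hold it. Rrp1b, the member with the deepest fall, does not. Each run is the 250 bases before the RefSeq start of the gene in GRCm38.p6, on the strand of the gene. The coordinates are chr6:125131633-125131882 on the plus strand for Nop2, chr11:93885767-93886016 on the minus strand for Utp18, chr16:13780449-13780698 on the plus strand for Rrn3 and chr17:32035912-32036161 on the plus strand for Rrp1b.
Nop2: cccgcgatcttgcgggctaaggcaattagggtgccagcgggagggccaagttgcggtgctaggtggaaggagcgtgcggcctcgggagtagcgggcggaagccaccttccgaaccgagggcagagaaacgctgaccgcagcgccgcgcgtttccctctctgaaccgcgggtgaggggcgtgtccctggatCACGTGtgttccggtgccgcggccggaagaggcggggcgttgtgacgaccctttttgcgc
Utp18: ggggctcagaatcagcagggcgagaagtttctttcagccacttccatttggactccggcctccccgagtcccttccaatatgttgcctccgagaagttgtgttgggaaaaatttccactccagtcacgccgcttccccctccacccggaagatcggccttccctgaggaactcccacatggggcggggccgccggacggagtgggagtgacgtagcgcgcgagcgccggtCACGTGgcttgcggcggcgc
Rrn3: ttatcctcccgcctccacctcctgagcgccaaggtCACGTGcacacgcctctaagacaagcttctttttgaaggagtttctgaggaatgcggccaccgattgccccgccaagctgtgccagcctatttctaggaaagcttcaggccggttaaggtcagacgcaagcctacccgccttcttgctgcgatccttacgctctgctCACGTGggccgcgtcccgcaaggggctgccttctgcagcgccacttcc
Rrp1b: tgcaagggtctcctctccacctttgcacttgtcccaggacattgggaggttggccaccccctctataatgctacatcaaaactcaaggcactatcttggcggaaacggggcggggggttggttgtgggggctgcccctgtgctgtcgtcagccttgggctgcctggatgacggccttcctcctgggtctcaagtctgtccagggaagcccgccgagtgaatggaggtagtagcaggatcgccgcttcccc

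The E-box begins 60 bases before the start in Nop2, 20 bases before it in Utp18, and 215 and 48 bases before it in Rrn3. RefSeq windows of 300 bases, the 250 before the start and the 50 after it, were matched for 35 of the 42 members. Bop1, Fbl, Rrs1, Nol6, Rrp12, Tcof1 and Npm1 had no window. CACGTG, which reads the same on both strands, was in 6 of these 35 members (17.1%), namely Nop2, Pes1, Rrn3, Utp18, Utp20 and Wdr43. It was in 12.6% of the tested genes with a window and in 7.15% of all 32851 windows. The ETS word CCGGAAG, searched on both strands, was in 12 of 35 members (34.3%), against 23.7% of tested genes and 8.86% of all windows. The GATA words AGATAA or TGATAA, on either strand, were in 1 member, Ubtf (2.86%), against 12.2% of tested genes and 18.6% of all windows. A match describes these letters in this window and is not a measured binding site.

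The smallest library held 9393156 counts (150 nM replicate 2) and the largest 15802510 (12.5 nM replicate 2). Levels are given as CPM, the counts scaled to a common library size by TMM, a normalisation that assumes most genes do not change. The sums of markers in this paragraph are the exception. They are CPM by total counts alone, without TMM, and are not on the same scale as the other levels. The erythroid identity of the cells was checked on 10 markers, whose summed level was 26097 to 26601 CPM at 200 nM, against 3178 to 3252 CPM at 0 nM. The summed level of 7 megakaryocyte markers was 364 to 376 CPM at 200 nM, against 11.03 to 12.39 CPM at 0 nM, with Gp1bb at 0 in all libraries. The 7 granulocyte and macrophage markers in the table summed to 2.93 to 3.43 CPM at 200 nM, against 0.741 to 1.39 CPM at 0 nM, with Mpo and Lyz2 at 0 in all libraries. The 6 mast cell markers summed to 0.357 to 0.623 CPM at 200 nM, against 1.39 to 2.09 CPM at 0 nM, with Mcpt8 at 0 in all libraries. The sums of erythroid, megakaryocyte, granulocyte and macrophage markers thus stood higher at 200 nM and that of mast cell markers lower. A sum is set mostly by the markers with the highest levels and does not show that each marker moved the same way. Under 1 CPM in every library were 3 of the 7 megakaryocyte markers, 5 of the 7 granulocyte and macrophage markers and 5 of the 6 mast cell markers. The sum of the megakaryocyte list therefore rests on part of its markers. Those of the granulocyte and macrophage list and of the mast cell list rest on few genes at low counts. The part of any of these cell types in the fall of the members was not tested. In bulk RNA, fewer cells of a type and less RNA per cell cannot be told apart.

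At 200 nM nearly the whole set was lower than at 0 nM. Of the 42 members, 41 were lower, while 39.5% of all tested genes were lower in this comparison (edgeR quasi-likelihood, adjusted by Benjamini-Hochberg, with p under 0.05, as for every call here). By the same test 0 members were higher, where 40.5% of tested genes were higher. DESeq2 also gave 41 lower and 0 higher, and 41 had an unadjusted p under 0.05. At least 2-fold lower were 36 of 42 members, against 17.4% of tested genes. The median log2 fold change was -1.68 over the members and 0.02 over all tested genes. Of the members, the level left at 200 nM was lowest for Rrp1b, at 11.2% of that at 0 nM, and highest for Nol9, at 97.2%. Together the 42 members held 0.457% to 0.460% of all counts at 200 nM, against 1.78% in each library at 0 nM.

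**Figure D1:**
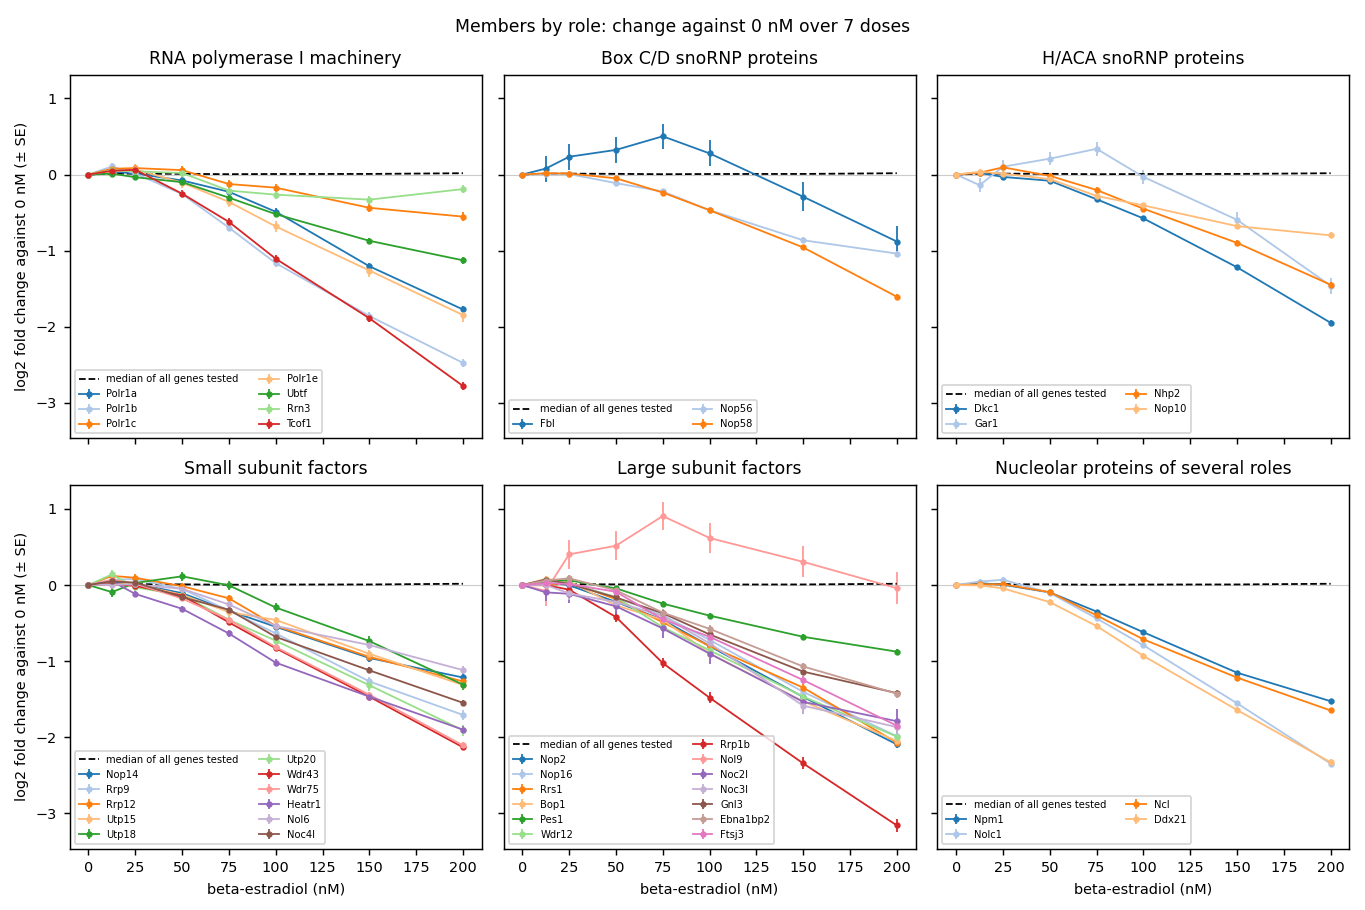
Log2 fold change of each of the 42 members against 0 nM (vertical axis, bars ± SE) over the dose of beta-estradiol in nM, in 6 panels by role, with the median of all genes tested as a dashed line. Nearly all lines bend down from 50 nM and end between -0.19 and -3.16 at 200 nM, while the line of Nol9 stands at 0.91 at 75 nM and -0.04 at 200 nM.

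The polymerase I machinery fell in 7 of 7 members at 200 nM, with a median log2 fold change of -1.77, but the members differed widely in size. Tcof1 encodes treacle, which helps to bring polymerase I to the ribosomal genes and is mutated in Treacher Collins syndrome. Its level was 36.0 and 36.1 CPM at 200 nM, against 248 and 246 CPM at 0 nM. The groups did not overlap, and the log2 fold change was -2.78 ± 0.06 (SE; edgeR quasi-likelihood, Benjamini-Hochberg adjusted p = 7.19e-39). Rrn3, on chromosome 16 from 13780708 to 13814839, encodes the factor that makes polymerase I ready to start. It stood at 265 and 276 CPM at 200 nM, against 306 and 312 CPM at 0 nM, a log2 fold change of -0.19 ± 0.05 (quasi-likelihood test of edgeR, Benjamini-Hochberg adjusted p = 0.00226). Rrn3 was the only member whose largest fall between neighbouring doses came at the step to 75 nM, and above that dose it hardly moved. Its level at 200 nM differed from that at 75 nM by a log2 fold change of 0.02 ± 0.05, with 265 and 276 CPM at 200 nM, against 270.2 and 264 CPM at 75 nM.

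The subunits of the enzyme itself also fell to unlike degrees. Polr1b, the second largest subunit, averaged 36.6 ± 2.4 CPM at 200 nM, against 204 ± 4 CPM at 0 nM (SD, n = 2 each), a log2 fold change of -2.47 ± 0.06. Polr1a, the catalytic largest subunit, had a log2 fold change of -1.77 ± 0.05, and Polr1e, a subunit specific to polymerase I, had -1.85 ± 0.09. Polr1c, which polymerase I shares with polymerase III, had -0.55 ± 0.05. Ubtf, which binds the ribosomal genes and keeps them open, had -1.13 ± 0.04. All of these passed the test at 200 nM.

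The ratio of 2 transcripts within a library does not depend on library scaling. The ratio of Polr1c to Polr1a in CPM was 1.45 and 1.46 at 200 nM, against 0.613 and 0.637 at 0 nM. That of Polr1b to Polr1a was 0.676 and 0.740 at 200 nM, against 1.16 and 1.15 at 0 nM. The ratio of Tcof1 to Ubtf was 0.323 and 0.337 at 200 nM, against 1.01 and 1.06 at 0 nM. None of these 3 ratios overlapped between the doses. For a ratio with 2 libraries against 2, the smallest p of an exact two-sided permutation test is 0.333, so such ratios are given as a description.

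Box C/D proteins bind the small nucleolar RNAs that guide 2'-O-methylation of ribosomal RNA. All 3 were lower at 200 nM, with a median log2 fold change of -1.04. Nop58, a core protein of the particle encoded on chromosome 1 from 59684971 to 59719044, stood at 284 and 279 CPM at 200 nM, against 854 and 858 CPM at 0 nM. Its log2 fold change was -1.61 ± 0.04 (edgeR quasi-likelihood, Benjamini-Hochberg adjusted p = 1.21e-37). Its partner Nop56 fell less, with a log2 fold change of -1.04 ± 0.04, and the ratio of Nop58 to Nop56 was 1.83 and 1.91 at 200 nM, against 2.73 and 2.80 at 0 nM. Nop56 has 4 pseudogenes that match parts of it at 95% identity or more, so its reads may be shared with copies.

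Fbl encodes fibrillarin, the methyltransferase of the same particle, and lies on chromosome 7 from 28169710 to 28179269. Its level was 24.2 and 22.8 CPM at 200 nM, against 47.8 and 38.7 CPM at 0 nM, a log2 fold change of -0.88 ± 0.20 (quasi-likelihood test of edgeR, Benjamini-Hochberg adjusted p = 0.00259). It took another path to that level than Nop56 and Nop58. At 75 nM it was at 59.3 and 63.3 CPM, above both libraries at 0 nM, with a log2 fold change of 0.50 ± 0.17 (quasi-likelihood test of edgeR, adjusted p = 0.0298). This call at 75 nM is weak. Its adjusted p was 0.0839 with libraries scaled by total counts alone, 0.148 without 0 nM replicate 2, 0.0683 without 75 nM replicate 1 and 0.126 without 75 nM replicate 2. The fall from this level passed the test, with a log2 fold change of -1.38 ± 0.19 at 200 nM against 75 nM. Reads of Fbl are uncertain, since 690 bases of a Tulp4 transcript match it at 99.6% identity on the opposite strand, the pseudogene Gm5812 matches 984 bases at 96.85%, and the protocol does not keep the strand.

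H/ACA proteins bind the small nucleolar RNAs that guide pseudouridylation, and they are also part of telomerase. All 4 were lower at 200 nM, with a median log2 fold change of -1.45. Dkc1, the pseudouridine synthase dyskerin, is X-linked from 75095854 to 75109777 and is mutated in dyskeratosis congenita. Its level was 126 and 133 CPM at 200 nM, against 488 and 514 CPM at 0 nM, a log2 fold change of -1.95 ± 0.04 (quasi-likelihood test of edgeR, Benjamini-Hochberg adjusted p = 8.1e-40). Nop10, a small protein that binds dyskerin, is encoded on chromosome 2 from 112261926 to 112263269. It stood at 194 and 209 CPM at 200 nM, against 352 and 349.9 CPM at 0 nM, a log2 fold change of -0.80 ± 0.04 (quasi-likelihood test of edgeR, adjusted p = 3.53e-24). The ratio of Dkc1 to Nop10 was accordingly 0.649 and 0.638 at 200 nM, against 1.39 and 1.47 at 0 nM.

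Nhp2, which binds the guide RNA, had a log2 fold change of -1.45 ± 0.04 at 200 nM. Gar1, the fourth H/ACA protein, lies on chromosome 3 from 129824912 to 129831396 and fell late. Its level was 24.4 and 21.5 CPM at 200 nM, against 67.3 and 59.0 CPM at 0 nM, a log2 fold change of -1.46 ± 0.11 (quasi-likelihood test of edgeR, Benjamini-Hochberg adjusted p = 4.23e-11). At 75 nM it was higher than at 0 nM, with 77.1 and 82.7 CPM at 75 nM and a log2 fold change of 0.34 ± 0.09 (quasi-likelihood test of edgeR, adjusted p = 0.0025). The groups did not overlap, and the adjusted p stayed under 0.05 with each scaling. With each library at 0 or 75 nM left out in turn, the log2 fold change at 75 nM ran from 0.24 to 0.43. At 200 nM against 75 nM the log2 fold change of Gar1 was -1.80 ± 0.11.

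**Figure D2:**
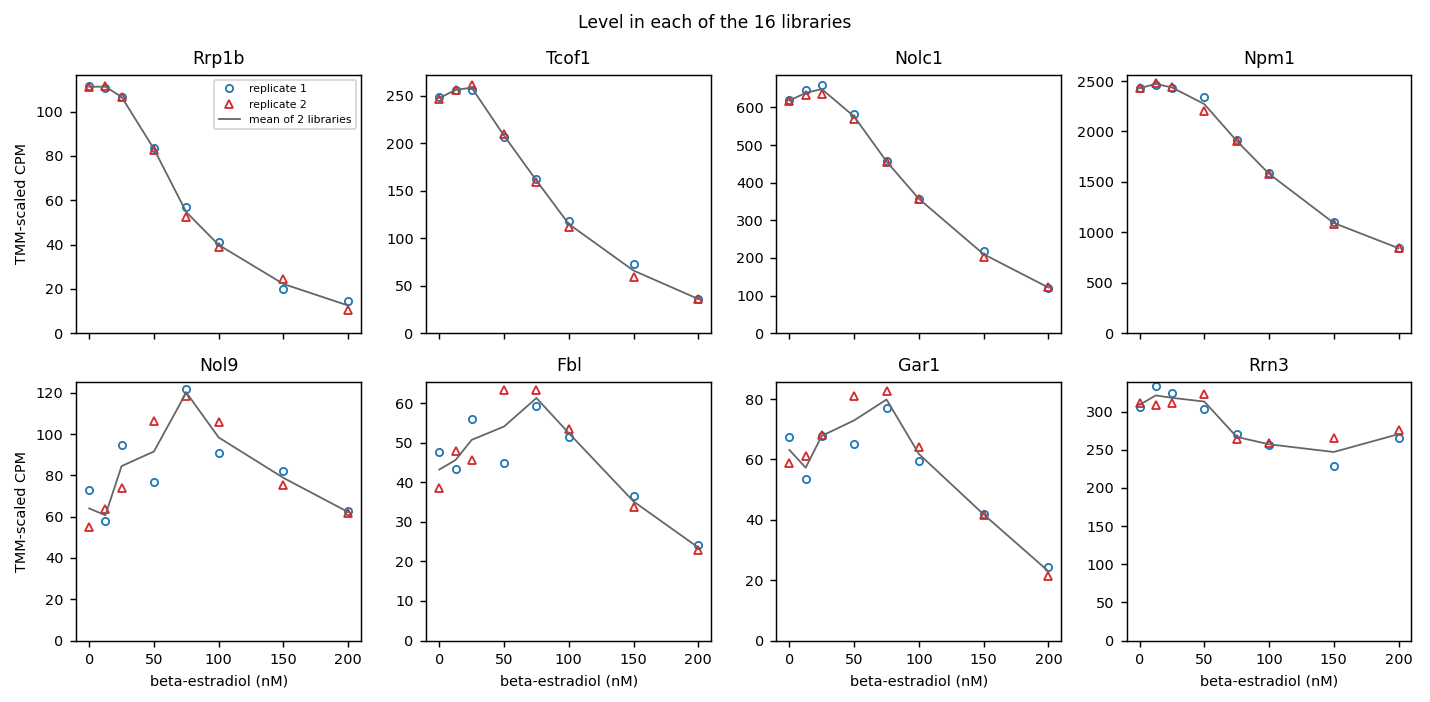
TMM-scaled CPM (vertical axis, from 0) of 8 members in each of the 16 libraries over the dose of beta-estradiol in nM, with circles for replicate 1, triangles for replicate 2 and a line through the mean of 2. Rrp1b, Tcof1, Nolc1 and Npm1 decline from 50 nM on, Nol9, Fbl and Gar1 have their highest means at 75 nM, and Rrn3 stays between 229 and 334 CPM.

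Small subunit factors sit on the growing precursor in the processome, a large particle that also holds the U3 small nucleolar RNA. All 11 were lower at 200 nM, with a median log2 fold change of -1.55 and the narrowest range of the groups with more than 4 members. Wdr43, a processome protein encoded on chromosome 17 from 71615895 to 71659031, stood at 110.0 and 117 CPM at 200 nM, against 487 and 506 CPM at 0 nM. Its log2 fold change was -2.13 ± 0.04 (edgeR quasi-likelihood, Benjamini-Hochberg adjusted p = 1.57e-40). Nol6, at the other end of the group and on chromosome 4 from 41114427 to 41124455, stood at 72.8 and 75.3 CPM at 200 nM, against 164 and 158 CPM at 0 nM. Its log2 fold change was -1.12 ± 0.05 (edgeR quasi-likelihood, adjusted p = 1.5e-24).

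Heatr1 is a processome protein that acts early on the precursor, and lies on chromosome 13 from 12395027 to 12440289. It had 90.5 and 79.1 CPM at 200 nM, against 315 and 317 CPM at 0 nM, a log2 fold change of -1.90 ± 0.05 (quasi-likelihood test of edgeR, Benjamini-Hochberg adjusted p = 1.13e-32). Among the 36 members with a half-maximal dose, that of Heatr1 was the lowest, with a range over left-out libraries that overlaps the range of Noc2l. At 50 nM it had 267 and 243 CPM, with a log2 fold change of -0.31 against 0 nM. Wdr43 and Wdr75, which sit in the same processome module as Heatr1 and Utp15, kept a near fixed ratio to each other, at 1.00 and 1.04 at 200 nM, against 1.00 and 1.07 at 0 nM. The ratio of Heatr1 to Utp15 was 1.08 and 0.994 at 200 nM, against 1.56 and 1.55 at 0 nM.

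Among the other small subunit factors, Rrp9, a protein of the U3 particle, had a log2 fold change of -1.71 ± 0.06 at 200 nM. Utp20, a very large processome protein, had -1.91 ± 0.08, and Noc4l, which binds the product of Nop14, had -1.55 ± 0.04 beside -1.21 ± 0.06 for Nop14. Rrp12, which takes part in the export of subunits, had -1.27 ± 0.05. Utp18 and Utp15 had -1.31 each, but Utp18 was the member with the latest fall in this group. It averaged 154 ± 4 CPM at 75 nM, against 154 ± 17 CPM at 0 nM (SD, n = 2 each), and was first lower at 100 nM.

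Large subunit factors bind the part of the precursor that becomes the large subunit, remodel it and cut out its spacers. At 200 nM 12 of 13 were lower, with a median log2 fold change of -1.87. Both ends of the whole set are in this group. Rrp1b, a nucleolar protein encoded on chromosome 17 from 32036100 to 32062865, stood at 14.5 and 10.6 CPM at 200 nM, against 112 and 111 CPM at 0 nM. Its log2 fold change was -3.16 ± 0.09 (edgeR quasi-likelihood, Benjamini-Hochberg adjusted p = 8e-34). At 50 nM it already stood at 83.8 and 82.6 CPM, and its log2 fold change of -0.42 was the lowest of the members at that dose.

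Nol9 encodes a polynucleotide kinase that takes part in removing an internal spacer of the rRNA precursor, and lies on chromosome 4 from 152039321 to 152061494. It was the only member not called at 200 nM, with 62.6 and 61.9 CPM at 200 nM, against 73.1 and 54.9 CPM at 0 nM. Its log2 fold change was -0.04 ± 0.21 (edgeR quasi-likelihood, Benjamini-Hochberg adjusted p = 0.863), and it turned to 0.16 without 0 nM replicate 1. At 75 nM it was higher, with 122 and 118 CPM at 75 nM and a log2 fold change of 0.91 ± 0.19 (quasi-likelihood test of edgeR, adjusted p = 0.00308). It was also called higher at 100 nM, with 91.0 and 106 CPM and a log2 fold change of 0.62 (quasi-likelihood test of edgeR, adjusted p = 0.0196). The call at 100 nM was lost with total counts alone (adjusted p = 0.0818), without 0 nM replicate 2 (0.127), without 100 nM replicate 2 (0.112) and in a fit of the 2 doses alone (0.103). At 200 nM against 75 nM Nol9 was lower, with a log2 fold change of -0.95 ± 0.20.

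The complex of Pes1, Bop1 and Wdr12 is needed for processing of the large subunit RNA, and its transcripts did not fall together. Bop1 had a log2 fold change of -2.05 ± 0.05 and Wdr12 one of -1.99 ± 0.04 at 200 nM, while Pes1 had -0.87 ± 0.04. The ratio of Bop1 to Pes1 was 0.349 and 0.339 at 200 nM, against 0.789 and 0.763 at 0 nM. That of Wdr12 to Pes1 was 0.581 and 0.662 at 200 nM, against 1.36 and 1.33 at 0 nM. Bop1 to Wdr12 stood at 0.599 and 0.512 at 200 nM, against 0.579 and 0.574 at 0 nM, and these groups did overlap. Pes1 has 2 pseudogenes that match it at 95% identity or more and Wdr12 has 1. Wdr12 also matches 1377 bases of Vmn1r88 at 97.24% and shorter stretches of Ppip5k1, Cxcr2 and Tmod3, all in the table, so reads of both may be shared with copies.

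**Figure D3:**
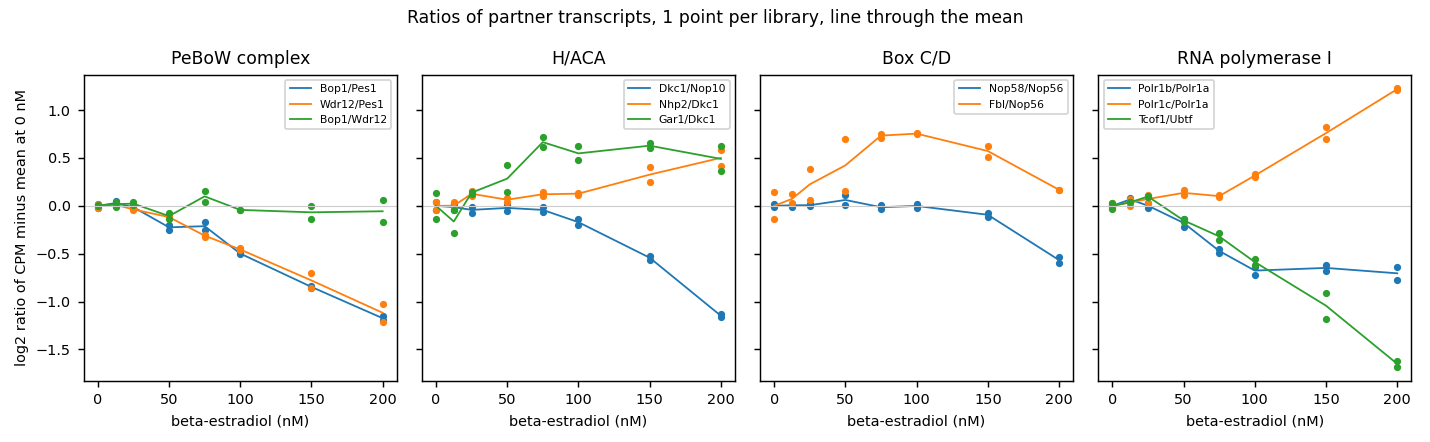
Log2 ratio of the CPM of 2 partner transcripts minus its mean at 0 nM (vertical axis) over the dose of beta-estradiol in nM, with 1 point per library and a line through the mean of 2, in 4 panels by complex. At 200 nM Bop1/Pes1 stands at -1.17, Wdr12/Pes1 at -1.12, Dkc1/Nop10 at -1.15 and Polr1c/Polr1a at 1.22, while Bop1/Wdr12 stands at -0.06.

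The other large subunit factors fell by amounts between those of Rrp1b and Pes1. Nop2 had a log2 fold change of -2.09 ± 0.04 at 200 nM, Rrs1, which helps to bring in the 5S rRNA particle, -2.07 ± 0.05, and Nop16 -1.98 ± 0.05. Ftsj3, an rRNA methyltransferase, had -1.85 ± 0.05, Noc3l -1.87 ± 0.11 and Noc2l -1.79 ± 0.16. The yeast counterparts of these last genes, Noc3 and Noc2, are partners in the transport of pre-ribosomes. Gnl3, the GTPase nucleostemin, had -1.42 ± 0.04 and Ebna1bp2 -1.43 ± 0.05. Noc2l had the lowest level of all members per kilobase of exon, at 1.98 CPM per kb at 200 nM, against 6.87 CPM per kb at 0 nM. Its exons overlap those of Samd11 on the opposite strand by 598 bases, so its reads cannot be told apart from those of Samd11 there.

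Nucleolar proteins of several roles fell in 4 of 4 members, with a median log2 fold change of -1.99 at 200 nM. Nolc1, which chaperones both kinds of small nucleolar particle, is encoded on chromosome 19 from 46075863 to 46085530. It stood at 120.2 and 123 CPM at 200 nM, against 621 and 616 CPM at 0 nM, a log2 fold change of -2.35 ± 0.04 (quasi-likelihood test of edgeR, Benjamini-Hochberg adjusted p = 1.36e-43). Npm1, nucleophosmin, is encoded on chromosome 11 from 33152287 to 33163206 and makes the outer layer of the nucleolus. It stood at 841 and 846 CPM at 200 nM, against 2431 and 2427 CPM at 0 nM, a log2 fold change of -1.53 ± 0.03 (quasi-likelihood test of edgeR, adjusted p = 2.16e-41). Per kilobase of exon Npm1 had the highest level of the 42 members at both doses, with 415 CPM per kb at 200 nM, against 1196 CPM per kb at 0 nM, though 4 pseudogenes match it at 95% identity or more. Exon length here joins the exons of a set of annotated transcripts of each gene, which gave 8202 bases for Ncl and 2031 for Npm1. In CPM not divided by length Ncl stood above Npm1, with 1159 CPM at 200 nM and 3633 CPM at 0 nM. Ddx21, an RNA helicase that also acts on polymerase I genes, had a log2 fold change of -2.33 ± 0.05, and Ncl, nucleolin, one of -1.65 ± 0.03.

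Against 0 nM, calls among the members began at 50 nM. All of these comparisons share the 2 libraries at 0 nM. At 12.5 nM edgeR called 0 members lower and 0 higher, where 0.228% of tested genes were lower and 0.278% higher. At 25 nM it again called 0 and 0, where 1.02% of tested genes were lower and 3.0% higher. At each of these doses 4 members had an unadjusted p under 0.05, and DESeq2 called 0. With libraries scaled by total counts alone 1 member, Heatr1, was lower at 25 nM, with a log2 fold change of -0.16 (quasi-likelihood test of edgeR, adjusted p = 0.0217). The median log2 fold change of the members was 0.04 at 12.5 nM and 0.02 at 25 nM.

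At 50 nM 21 of 42 members were lower, where 14.7% of tested genes were lower, and the median log2 fold change of the members was -0.10. The changes were small, from -0.42 for Rrp1b to -0.09 for Ncl among those called, and 4 of 4 proteins of several roles, 8 of 13 large subunit factors and 0 of 4 H/ACA proteins were lower. By edgeR 0 members were higher at 50 nM, where 18.8% of tested genes were higher, 28 members had an unadjusted p under 0.05 in either direction, and DESeq2 called 1 higher, Nol9. Scaling by total counts alone gave 34 lower in place of 21, where it gave 23.1% of tested genes lower in place of 14.7%.

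At 75 nM 38 members were lower and 3 higher, where 26.9% of tested genes were lower and 29.0% higher. The 3 higher members were Nol9, Fbl and Gar1, and Utp18 was not called. The median log2 fold change of the members was -0.36 at this dose. At 100 nM 39 were lower and 1, Nol9, was higher, where 32.5% of tested genes were lower and 34.1% higher, and the median was -0.64. At 150 nM 40 were lower and 0 higher (0 also by DESeq2, with 40 members at an unadjusted p under 0.05), where 36.6% of tested genes were lower and 37.7% higher, and the median was -1.21. Fbl and Nol9 were the members not called at 150 nM.

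Counted by the first dose from which a member stayed lower, 21 members began at 50 nM, 17 at 75 nM, 1 (Utp18) at 100 nM, 1 (Gar1) at 150 nM and 1 (Fbl) at 200 nM. Nol9 did not become lower at any dose. The replicates of Nol9, Fbl and Gar1 lay farther apart than those of most members, with median gaps of 0.18, 0.13 and 0.14 on the log2 scale over the 8 doses. Noc2l alone had a wider gap than these 3, at 0.22. At 6 of 8 doses the same replicate was the higher one for all 3 of Nol9, Fbl and Gar1. At 50 nM, for example, replicate 1 had 76.8 CPM of Nol9, 44.8 of Fbl and 65.0 of Gar1, and replicate 2 had 106 of Nol9, 63.4 of Fbl and 80.9 of Gar1. The part of this shared spread in the calls at 75 nM was not tested.

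Between neighbouring doses the members were also set side by side. At 25 nM against 12.5 nM 1 member, Heatr1, was lower, with a log2 fold change of -0.17 (quasi-likelihood test of edgeR, Benjamini-Hochberg adjusted p = 0.0335), where 0.198% of tested genes were lower. DESeq2 did not call it. At 50 nM against 25 nM 23 members were lower, where 12.1% of tested genes were. At 75 nM against 50 nM 36 members were lower, where 15.8% of tested genes were, and at 100 nM against 75 nM again 36, where 12.8% were. At 150 nM against 100 nM 40 members were lower, where 20.2% of tested genes were, and Rrn3 and Nol9 were not called. At 200 nM against 150 nM 36 members were lower, where 19.9% of tested genes were. The 6 not called at this last step were Polr1c, Rrn3, Fbl, Nol9, Noc2l and Noc3l. At none of the 6 steps named here did edgeR or DESeq2 call a member higher, with 6, 28, 38, 38, 40 and 39 members at an unadjusted p under 0.05 in either direction, in order of dose. Of all tested genes, 0.893%, 14.1%, 16.6%, 14.7%, 20.6% and 19.4% were higher at these steps.

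The median log2 change of the members was -0.55 at 150 nM against 100 nM and -0.52 at 200 nM against 150 nM. The largest fall between neighbouring doses was the step to 150 nM in 26 members, the step to 200 nM in 15 and the step to 75 nM in 1, Rrn3. These 2 last steps span 50 nM each, wider than the 12.5 or 25 nM of the steps before them. At 200 nM against 75 nM, a comparison added after the profiles had been seen, 41 members were lower, where 35.0% of tested genes were, and Rrn3 was not called.

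The half-maximal dose, midway in the fall of a member on the log2 scale, was read for the 36 members at least 2-fold lower at 200 nM. Its median was 115 nM, with quartiles of 107 and 121 nM. Over all 1754 genes at least 2-fold lower the median was 106 nM, with quartiles of 84.4 and 122 nM. The lowest was 94.7 nM for Heatr1 (91.5 to 97.8 nM over fits that leave out each library in turn) and the highest was 155 nM for Gar1 (153 to 157 nM). The ranges of these 2 members do not touch, but those of most neighbours in the order do.

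Of the 4 H/ACA proteins 3 had a half-maximal dose, at 129 nM for Nhp2, 130.4 nM for Dkc1 and 155 nM for Gar1. Nop10 fell less than 2-fold and has none. By the first dose from which they stayed lower, Nhp2, Dkc1 and Nop10 all began at 75 nM, as did most members that were not lower at 50 nM. Only Nop58 at 134 nM and Utp18 at 140.3 nM stood among them, and the other 31 members had lower half-maximal doses than all 3. Box C/D had 2 members with such a dose, and Nop56 at 106 nM stood apart from Nop58. Group medians were 116 nM for the polymerase I machinery, 115 nM for small subunit factors, 110.2 nM for large subunit factors and 115 nM for the proteins of several roles. No test was made between the groups, since their members are not replicates.

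**Figure D4:**
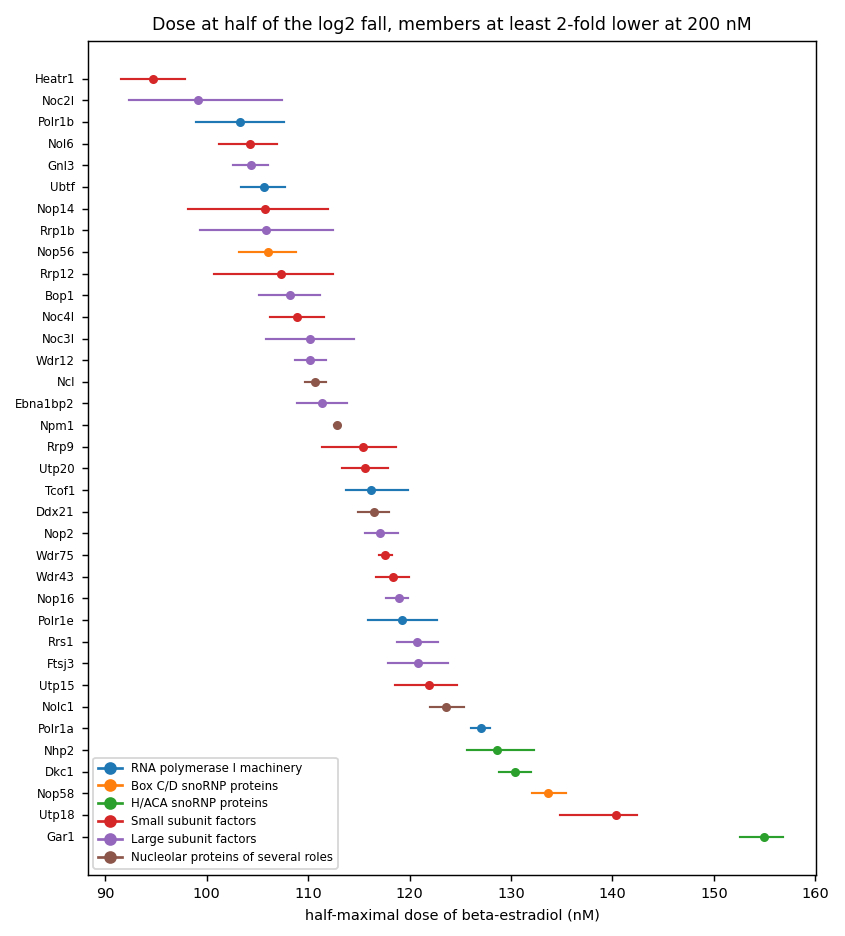
Half-maximal dose of beta-estradiol in nM (horizontal axis) of the 36 members at least 2-fold lower at 200 nM, 1 per line, coloured by role, with bars for the range over fits that leave out each library in turn. Heatr1 is at 94.7 nM, Gar1 at 155 nM, and the 3 H/ACA proteins lie at 129 nM or above.

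Myc, known as an activator of ribosome production, fell over the same doses. It stood at 96.9 and 90.7 CPM at 200 nM, against 389 and 394 CPM at 0 nM, a log2 fold change of -2.06 ± 0.04 (quasi-likelihood test of edgeR, Benjamini-Hochberg adjusted p = 8.46e-40). It was first called at 50 nM, with a log2 fold change of -0.41, where the median of the members was -0.10. Its half-maximal dose was 94.9 nM (93.1 to 96.7 nM), next to that of Heatr1, the lowest of the members. The median half-maximal dose of the members was higher, at 115 nM. Its part in the fall of the members was not tested. Gata1 transcripts, whose reads cannot be told apart from those of the fusion, stood at 1675 and 1610 CPM at 200 nM, against 755 and 667 CPM at 0 nM, a log2 fold change of 1.21 ± 0.07 (quasi-likelihood test of edgeR, adjusted p = 1.28e-07).

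The entry Rn45s, named for the precursor that polymerase I makes and these factors process, moved in the opposite direction. It held 14.6% and 15.3% of all counts at 200 nM, against 9.61% and 9.53% at 0 nM. It averaged 177226 ± 6606 CPM at 200 nM, against 87073 ± 626 CPM at 0 nM (SD, n = 2 each). The log2 fold change was 1.03 ± 0.04 (edgeR quasi-likelihood, Benjamini-Hochberg adjusted p = 2.2e-09), and 0.64 with total counts alone. Smart-seq2 primes on poly(A), so reads counted to Rn45s are not a measure of ribosomal RNA output. Reads of the precursor and of mature ribosomal RNA were not told apart. Without Rn45s in the total, the members held 0.538% and 0.540% of counts at 200 nM, against 1.97% in each library at 0 nM. In a refit, Rn45s and the globin genes were left out before TMM. At 75 nM against 0 nM, log2 fold changes in this refit were 0.90 for Nol9, 0.50 for Fbl and 0.33 for Gar1. The main fit gave 0.91, 0.50 and 0.34. Beyond leaving Rn45s out, its part in the values of the members was not tested.

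**Figure D5:**
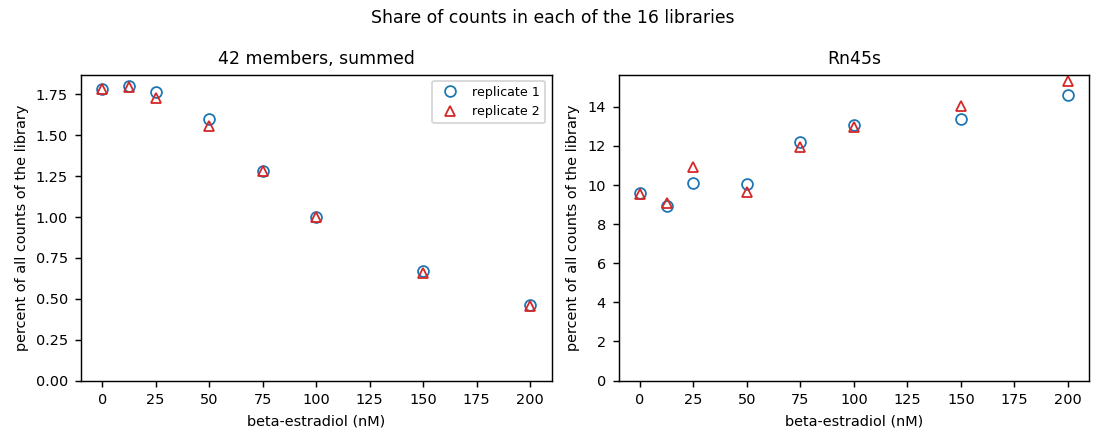
Percent of all counts of a library (vertical axis, from 0) held by the 42 members together (left) and by Rn45s (right), over the dose of beta-estradiol in nM, with circles for replicate 1 and triangles for replicate 2. The members hold 0.457% to 0.460% at 200 nM, against 1.78% at 0 nM, and Rn45s holds 14.6% and 15.3% at 200 nM, against 9.61% and 9.53% at 0 nM.

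Some members carry small nucleolar RNAs in their introns, so their transcription also yields guide RNAs for the same machinery. By GENCODE annotation 6 of the 42 members (14.3%) hosted such RNAs, against 249 of 19355 protein-coding symbols (1.29%). These symbols include genes that did not pass the filter on low counts, while all 42 members passed it. Nop56 hosted 5, Nop58 4, Wdr43, Gnl3 and Ncl 3 each, and Dkc1 1. All 6 hosts were lower at 200 nM, with log2 fold changes from -2.13 for Wdr43 to -1.04 for Nop56. So were 41 of all 42 members and 39.5% of tested genes. The small nucleolar RNAs themselves were not analysed here.

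Other genes of the pathway, on lists that share no member with the 42, mostly fell too, and these comparisons use the same libraries. Of 15 further polymerase I genes 12 were lower and 0 higher at 200 nM, with a median log2 fold change of -0.76. Polr2h, a subunit shared by the RNA polymerases, had -2.14 and Cd3eap, a polymerase I subunit, -1.69, while Ttf1, which ends transcription of the ribosomal genes, had 0.01 and Polr2k 0.29, and neither of these passed the test. Of 13 further genes listed with small nucleolar particles 11 were lower and 1 higher, with a median of -1.43. Naf1, an H/ACA assembly factor, had -3.06 and Ruvbl2, an ATPase of box C/D assembly, -2.65, while Pih1d1 had -0.10 and did not pass. The 1 higher gene was Nop9, a ribosome assembly factor rather than a protein of these particles, with 0.32 (edgeR quasi-likelihood, Benjamini-Hochberg adjusted p = 0.0400).

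Of 36 further small subunit genes 34 were lower and 0 higher, with a median of -1.21. Tsr1, a late factor of the small subunit, had -2.21 and the processome gene Cirh1a -2.09, while Rrp36 at -0.16 and Utp23 at 0.05 did not pass. Of 41 further large subunit genes 39 were lower and 1 higher, with a median of -1.43. Lyar had -2.75 and Rrp15 -2.53, Nsa2 at 0.07 did not pass, and the 1 higher gene was Gltscr2, at 0.77. RNA polymerase III makes 5S rRNA and transfer RNAs, and its genes were split, with 13 of 22 lower and 8 higher and a median of -0.23. Polr3e had -2.20 and Polr3k -1.08, while Brf1, a subunit of its initiation factor, had 1.44 and Maf1, its repressor, 1.73. Beside all of these counts stand the tested genes, of which 39.5% were lower and 40.5% higher at 200 nM, with a median log2 fold change of 0.02. The polymerase III genes were thus split much as all tested genes were.

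The scaling of the libraries bears on all levels. With total counts alone in place of TMM, the median of all tested genes was -0.36 at 200 nM, with 5396 genes lower and 2819 higher, where TMM gave 3977 lower and 4086 higher. Most tested genes were thus called at 200 nM under both scalings, while TMM assumes that most genes do not change. The median of the members was -2.06 under total counts alone, against -1.68 under TMM. Relative to the median of all tested genes, the value under total counts was -1.69. Another scaling shifts all genes by nearly the same amount. This distance is therefore nearly fixed in advance and is no check of the scaling.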

How the data were processed

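RNA was measured in 16 libraries of G1E-ER4 cells, with Smart-seq2 on lysates in RLT buffer, per the labels' protocols. The authors' deposited table holds counts of reads for each symbol, whole numbers with another total in each library and so not normalised. The submitters' processing notes name bcl2fastq, STAR and mm10; versions, the counter and its treatment of multi-mapped reads are not stated there. Reads carry no strand and no molecular identifiers, so overlapping genes cannot be told apart and amplified reads are not independent molecules. The replicates were not copies of each other, since the chi-square per degree of freedom between them was 1.66 to 3.82.

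The counts were tested with edgeR 4.0.16 under R 4.3.3. Genes that passed filterByExpr, grouped by dose, were scaled by TMM and fitted by a robust quasi-likelihood model with dose as a factor over all 16 libraries, on the whole table. P-values were adjusted by Benjamini-Hochberg over the 10080 genes of each contrast, and an adjusted p under 0.05 was called. The standard error is the absolute log2 fold change over the square root of its F value. The half-maximal dose came from linear interpolation of dose means of log2 CPM (prior count 2), made monotone over dose. The test was tried on simulated counts first. DESeq2 1.42.0 and other scalings, filters and left-out libraries were run as alternatives.

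Gene positions came from GENCODE M21 on GRCm38, and near-identical transcripts from blastn 2.17.0 with at least 95% identity over 200 bases. Promoters came from RefSeq on GRCm38.p6. Values per library are given for the members with the lowest and the highest log2 fold change at 200 nM in each role group, those with the lowest and highest half-maximal dose, and any not lower at 200 nM, beside Gata1, Myc and Rn45s. From each pathway list the 2 lowest and 2 highest were named. Members and lists were chosen with earlier results of these data known. Other genes in the text, the partner ratios and the motif words were chosen after values had been seen. One further list of cell type markers is not reported here.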

Additional observations from a re-analysis of the deposited data

How the results depend on the processing

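Of 334 counts of members called under alternative settings 313 were within 1.5 times the main count, and all 21 others concern counts of 3 or fewer or the dose of 50 nM. Of 220 log2 fold changes of named genes at 200 nM, 219 kept direction and call. The exception was Nol9, at 0.16 without 0 nM replicate 1, against -0.04 with all libraries. With each library at 0 or 200 nM left out in turn, its log2 fold change ran from -0.25 to 0.16.

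Total counts alone gave 1 member lower at 25 nM (0 under TMM), 34 lower at 50 nM (21 under TMM) and 0 higher at 100 nM (1 under TMM). Over all tested genes it gave 2330 lower at 50 nM (1481 under TMM) and 2452 higher at 100 nM (3436 under TMM). The median log2 fold changes under total counts alone were -0.030, -0.18, -0.48, -0.83, -1.48 and -2.06 at 25, 50, 75, 100, 150 and 200 nM. Under upper-quartile scaling they were -0.14, -0.41, -0.70, -1.28 and -1.75 at 50, 75, 100, 150 and 200 nM. Median-ratio scaling gave 1 member higher at 200 nM against 150 nM. Without a filter on low counts 1 member was higher at 50 nM, 1 at 25 nM against 12.5 nM and 1 at 200 nM against 150 nM. A fit of the 2 doses alone gave 1 lower at 25 nM and 1 higher at 150 nM. DESeq2 gave 1 higher at 50 nM and 0 lower at 25 nM against 12.5 nM. The causes were not tested.

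Leaving out each library in turn gave 15 to 21 members lower at 50 nM, 36 to 37 at 75 nM, 39 at 100 nM, 40 at 150 nM and 41 at 200 nM. Members higher ran from 0 to 3 at 50 nM (3 without 0 nM replicate 1 or without 50 nM replicate 1), from 2 to 3 at 75 nM and from 0 to 1 at 100 nM (0 without 0 nM replicate 2 or without 100 nM replicate 2). Between neighbours, 0 to 1 were lower at 25 nM against 12.5 nM, 16 to 26 lower and 0 to 2 higher at 50 nM against 25 nM, 0 to 3 higher at 75 nM against 50 nM (3 without 50 nM replicate 2) and 0 to 1 higher at 200 nM against 150 nM (1 without 150 nM replicate 2). The median log2 fold change ran from -0.14 to -0.077 at 50 nM, from -0.66 to -0.62 at 100 nM and from -1.71 to -1.66 at 200 nM. In each of these comparisons only the libraries of the 2 doses compared were left out in turn. The median half-maximal dose ran from 114 to 116 nM over left-out libraries, and was 114 nM with total counts alone and 116 nM with a prior count of 0.5.

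The replicate numbers do not pair the samples. Correlations of replicate 1 minus replicate 2 between doses ran from -0.06 to 0.10, with 0 of 28 over 0.1. The replicate block gave 41 members lower at 200 nM, 38 lower and 3 higher at 75 nM and 21 lower at 50 nM, as without it. With both 150 nM libraries left out, an alternative chosen after seeing the data, 22 were lower at 50 nM. With 2 libraries a dose, Nol9, Fbl, Gar1 and Noc2l, with replicate gaps of 0.13 to 0.22 on the log2 scale, are measured less precisely than the other members.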
